A study of Homo sapiens with 6 samples.

Results

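Complex I (NADH:ubiquinone oxidoreductase) was represented by 39 gene symbols of the 20979 listed in at least 1 library. The members are all symbols that begin with NDUFA, NDUFB, NDUFC, NDUFS or NDUFV, less 8 symbols of assembly factors (NDUFAF) and 4 with a hyphen, which are 3 antisense RNAs and the read-through transcript NDUFC2-KCTD14. They comprise the 7 core subunits encoded in the nucleus, 30 accessory subunits, and NDUFA4 and NDUFA4L2, which carry the family name although the NDUFA4 protein is now counted with complex IV. The 7 core subunits encoded by mitochondrial DNA were searched for by symbol and none was listed, so they were not analysed here. Of the 39 members, 38 had a mean of at least 1 TPM (a transcript level scaled for transcript length and library size) and were tested. NDUFA4L2, a hypoxia-inducible paralog of NDUFA4, was the exception, absent from the tables of both control libraries and of 5p replicate 1 and at 0.09, 0.13 and 0.04 TPM in the others.

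The study concerns the choice between the arms of the miR-324 hairpin. The material was polyadenylated RNA of A172, an established line from a human glioblastoma, and the 6 libraries fall into 3 groups. The control group received a control miRNA (miNC), the 5p group a miR-324-5p duplex and the 3p.1 group a miR-324-3p.1 duplex, each by lipid transfection with harvest after 1 day (n = 2 libraries each). All groups thus share the cell line, the transfection and the harvest time, the levels of the transfected strands were not analysed here, and a single line at a single time limits what the groups model. The labels do not say that the 2 libraries of a group came from separate cultures, and the p-values below therefore reflect no more than the spread between these libraries, which may be technical.

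The number of reads behind each value is not known, as TPM does not carry it. Between 13216 and 13536 symbols per library reached 1 TPM. Of 12 glial or mesenchymal markers searched, 11 were listed and 9 reached 1 TPM in every library, led by VIM (4788 to 5910 TPM) and CD44 (708 to 929 TPM). The glial marker S100B was not listed, and the astrocyte markers GFAP (at most 0.25 TPM) and SLC1A3 (at most 0.01 TPM) were close to 0. Summed levels of neuronal (14.2 to 17.4 TPM) and epithelial markers (6.34 to 8.35 TPM) were low in all groups. Of 9 blood or endothelial markers searched, 5 were listed, and of these CD68 (32.7 to 60.2 TPM) and PTPRC (5.52 to 7.48 TPM) reached 1 TPM. All 19 interferon-stimulated genes examined lay lower in both libraries of either duplex than in both control libraries. Of these, 4 passed the limma threshold with the 5p duplex and 0 with the 3p.1 duplex (19 at an unadjusted p under 0.05 in each). Their summed level was 1176 and 3702 TPM in the control libraries against 291 to 364 TPM in the other 4, and the part of this in the results below was not tested.

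Complex I is the entry point of the respiratory chain. It takes electrons from NADH in the mitochondrial matrix, passes them through a flavin and a row of iron-sulfur clusters to ubiquinone, and pumps protons across the inner membrane. Its core subunits carry these reactions in the N module (NADH oxidation), the Q module (ubiquinone reduction) and the membrane arm (proton pumping), and accessory subunits surround the core and are needed for assembly and stability.

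The sequences on which the comparison with the duplexes rests are the mature arms of miR-324, taken from RefSeq (GRCh38.p14, chromosome 17, minus strand), with bases 2 to 8, the seed that pairs with a target, in capitals. The exact 3p.1 strand is not spelled out in the labels. The 3p arm was therefore examined from 3 different starts, of which the RefSeq form is shown.
miR-324-5p (chr17:7223343-7223364): cGCAUCCCcuagggcauuggug
miR-324-3p (chr17:7223308-7223330): cCCACUGCcccaggugcugcugg
A transcript pairs with the miR-324-5p seed where it holds GGGATGC. NDUFA8 (ENSG00000119421, chr9:122144058-122159819, minus strand) and NDUFAB1 (ENSG00000004779, chr16:23581002-23596356, minus strand) carry the results below, and neither gene holds this 7-base match, or the form GGATGCA, in any annotated coding transcript (1 for NDUFA8 and 4 for NDUFAB1 in GENCODE 29 on GRCh38). The nearest letters were 6-base matches to bases 2 to 7, shown in capitals with their surroundings in 28 bases, 1 in the 5′UTR of NDUFA8 and 1 in the coding sequence of NDUFAB1.
NDUFA8, 5′UTR (chr9:122159782-122159787, minus strand): tgcgtgttgccGGATGCgcatgcgcagg
NDUFAB1, coding (chr16:23596215-23596220, minus strand): gccccgggtccGGATGCtggccgtggcc
The NDUFA8 match lies 3 bases before the RefSeq start of the gene and inside the 5′UTR of the GENCODE transcript, which starts further upstream. Matches of 6 or more bases were not particular to these 2 genes. In the transcript with the longest 3′UTR, coding sequence held one in 6 of 38 members (15.8%, against 36.1% of 12040 genes). The 5′UTR held one in 3 of 38 (7.89%, against 4.94%). Members that were not called are among them, such as NDUFS1 (coding) and NDUFA6 (5′UTR).

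The first comparison asked which complex I genes stood lower or higher with the 5p duplex than in control. NDUFA8 and NDUFAB1 fell and no other member passed the test. NDUFA8, an accessory subunit of the intermembrane space side held together by disulfide bonds, was at 219 and 215 TPM in control, 118 and 129.6 TPM in the 5p libraries, and 219.97 and 218 TPM in the 3p.1 libraries. Both 5p libraries were lower than the other 4, which lay close together. The mean fell by 42.9%, from 217 ± 2.28 to 124 ± 7.94 TPM (SD, n = 2), a log2 fold change of -0.80 (SE 0.0841, 95% interval -1.01 to -0.60, limma adjusted p = 0.0251). NDUFAB1, the mitochondrial acyl carrier protein, which serves lipoic acid synthesis and iron-sulfur cluster assembly as well as complex I, was at 395 and 373 TPM in control, 218 and 206 TPM in the 5p libraries, and 381 and 318 TPM in the 3p.1 libraries. Again both 5p libraries were lower than the other 4. The mean fell by 44.8%, from 384 ± 15.8 to 212 ± 7.997 TPM (SD, n = 2), a log2 fold change of -0.85 (SE 0.11, 95% interval -1.12 to -0.59, limma adjusted p = 0.049). In bulk RNA, fewer cells with a transcript and less of it per cell cannot be told apart.

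The sizes of both falls were stable and their calls were not. Between libraries of the same replicate number NDUFA8 differed by -0.88 and -0.73 and NDUFAB1 by -0.86 and -0.85 on the log2 scale. In the 6 fits that each left out 1 library, NDUFA8 lay between -0.74 and -0.87 and NDUFAB1 between -0.81 and -0.90, yet neither passed the threshold in any of them, whichever library was left out (limma adjusted p 0.0511 to 0.143 and 0.0825 to 0.265). Both calls were also lost without the filter on low genes, without the variance trend and with only the 2 groups in the fit (limma adjusted p 0.0619 to 0.0996 for NDUFA8 and 0.080 to 0.132 for NDUFAB1), and that of NDUFAB1 with quantile normalization (0.0593). The 2 control libraries, which stood far apart in interferon genes, differed by 0.021 for NDUFA8 and 0.084 for NDUFAB1 on the log2 scale. Interferon genes also set both duplex groups apart from control, and their part in these falls was not tested.

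In all, 2 of 38 tested members were called lower with the 5p duplex and 0 higher. Over all 13400 genes tested, 57 were called lower (0.425%) and 5 higher (0.0373%), 62 in all (0.463%). By unadjusted p, NDUFA8 and NDUFAB1 ranked 26 and 46 of the 13400. The other 36 members ran from -0.28 (NDUFS7) to 0.11 (NDUFB2), with a median of -0.021, beside a median of -0.030 over all genes. The 95% interval of each of these 36 included 0, and no lower bound went beyond -0.62, so falls of the size seen for NDUFA8 and NDUFAB1 lay outside every one of them. None of the 36 had an unadjusted p under 0.05, where 7.3% of all tested genes were lower and 1.86% higher at that level.

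**Figure D1:**
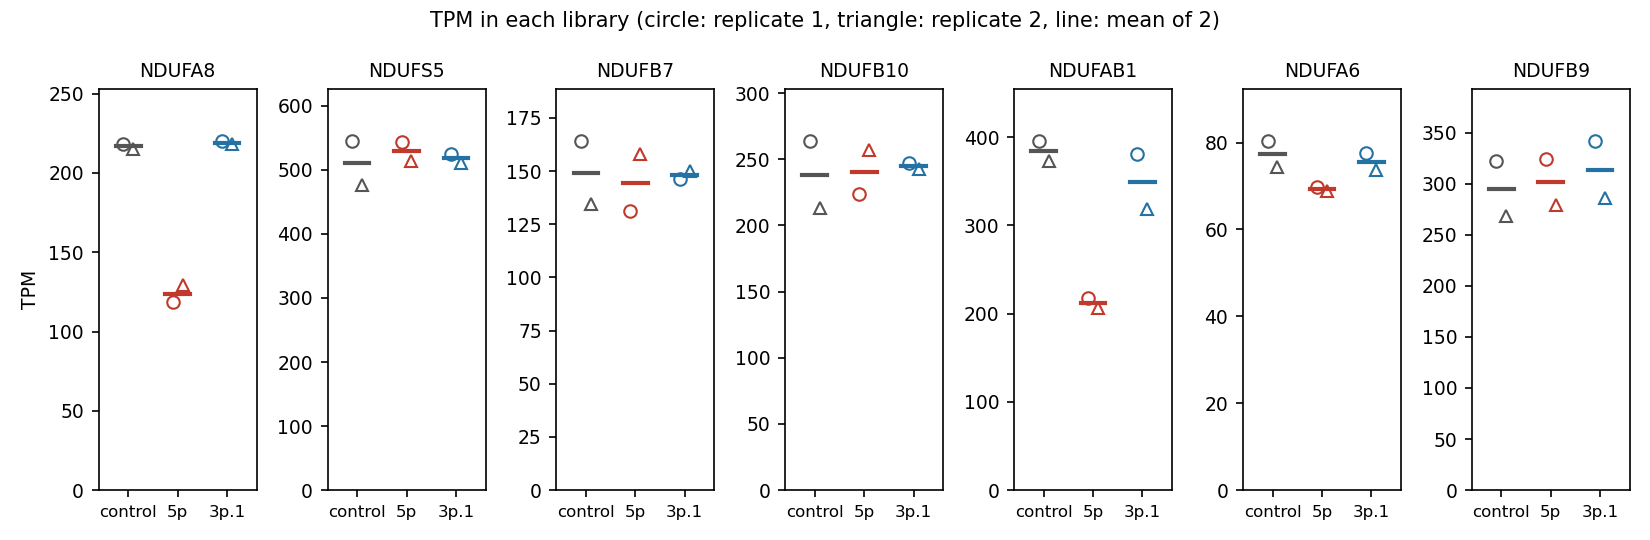
TPM (vertical axis, from 0) in each library for NDUFA8 and 3 other members folded by the intermembrane space disulfide relay (NDUFS5, NDUFB7, NDUFB10), and for NDUFAB1 and its LYR partners (NDUFA6, NDUFB9), by group. Circles are replicate 1, triangles replicate 2 and lines the mean of 2. NDUFA8 and NDUFAB1 lie at 118 to 130 and 206 to 218 TPM in the 5p libraries, well below the other 4 libraries. The remaining genes lie near their control level, though both 5p libraries of NDUFA6 (69.8 and 69.0 TPM) lie below its other 4 (73.7 to 80.3 TPM).

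Subunits that resemble or bind these 2 were not called. NDUFA8 belongs to a class with twin CX9C motifs that is folded by the intermembrane space disulfide relay, as do NDUFS5 and NDUFB7. NDUFB10 is also folded by this relay, without the twin CX9C spacing. NDUFS5 was at 544 and 476 TPM in control and 544 and 514 TPM in the 5p libraries, NDUFB7 at 164 and 135 against 131 and 158 TPM, and NDUFB10 at 264 and 213 against 224 and 257 TPM. The groups overlapped for all 3, and their log2 fold changes were 0.054, -0.046 and 0.016 (0.088 for NDUFB7 with the trend on transcript GC content removed). The acyl carrier protein NDUFAB1 binds complex I through 2 subunits of the LYR family, NDUFA6 and NDUFB9. NDUFA6 was at 80.3 and 74.5 TPM in control and 69.8 and 69.0 TPM in the 5p libraries, lower in both 5p libraries but short of the threshold (log2 -0.15, SE 0.0865, limma adjusted p = 0.688). NDUFB9 was at 322 and 268 TPM in control and 324 and 279 TPM in the 5p libraries (log2 0.035). These partners were picked after the values were seen.

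Set against the other 35 core and accessory subunits of the same library, a measure that does not depend on library scaling, both genes were lower by a like amount. NDUFA8 equalled 2.85% and 3.28% of the summed TPM of those 35 in control, 1.66% and 1.90% in the 5p libraries and 3.005% and 3.23% in the 3p.1 libraries. NDUFAB1 equalled 5.16% and 5.68% in control, 3.06% and 3.02% in the 5p libraries and 5.21% and 4.70% in the 3p.1 libraries. NDUFAB1 thus ranked 4 of 39 members by TPM in both control libraries and 17 and 16 of 39 with the 5p duplex. NDUFA8 ranked 19 and 15 in control and 25 in both 5p libraries. Across all 6 libraries NDUFA8 and NDUFAB1 each had an SD of 0.42 in log2(TPM + 1), and no other tested member exceeded 0.19 (NDUFA5).

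The 7 core subunits, which carry out the redox chemistry, were not called in any comparison. In the N module, NDUFV1, which binds the flavin and NADH, was at 81.9 and 80.9 TPM in control, 72.2 and 87.3 TPM in the 5p libraries and 86.6 and 85.5 TPM in the 3p.1 libraries. Its partner NDUFV2, which holds an iron-sulfur cluster, was at 368 and 325, 354 and 306, and 360 and 344 TPM in the same order, and NDUFS1, the largest subunit and carrier of further clusters, at 102 and 99.4, 109 and 90.3, and 117 and 107 TPM. The 5p libraries overlapped control for all 3, and the 3p.1 libraries of NDUFV1 and NDUFS1 lay above control without passing the test (log2 0.080 and 0.15, limma adjusted p = 0.959 and 0.881).

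In the Q module, NDUFS3 was at 224 and 179.6 TPM in control, 227 and 202 TPM in the 5p libraries and 229.8 and 197 TPM in the 3p.1 libraries, and NDUFS8, which holds a pair of iron-sulfur clusters, at 169 and 137, 135 and 160.2, and 154 and 153 TPM in the same order. NDUFS7, which holds the cluster nearest to ubiquinone, was the core gene with the lowest level, at 48.9 and 39.5 TPM in control, 32.8 and 39.6 TPM in the 5p libraries and 41.0 and 41.2 TPM in the 3p.1 libraries. NDUFS7 had the largest difference of the core genes between 5p duplex and control (log2 -0.28, SE 0.14, limma adjusted p = 0.634), and its second 5p library matched the second control library. With the trend on transcript GC content removed, NDUFV1 and NDUFS8 stood above control with the 5p duplex (log2 0.047 and 0.068), also not called. The median of the 7 core genes was -0.034 for 5p duplex against control and 0.080 for 3p.1 duplex against control. These comparisons share the 2 control libraries.

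**Figure D2:**
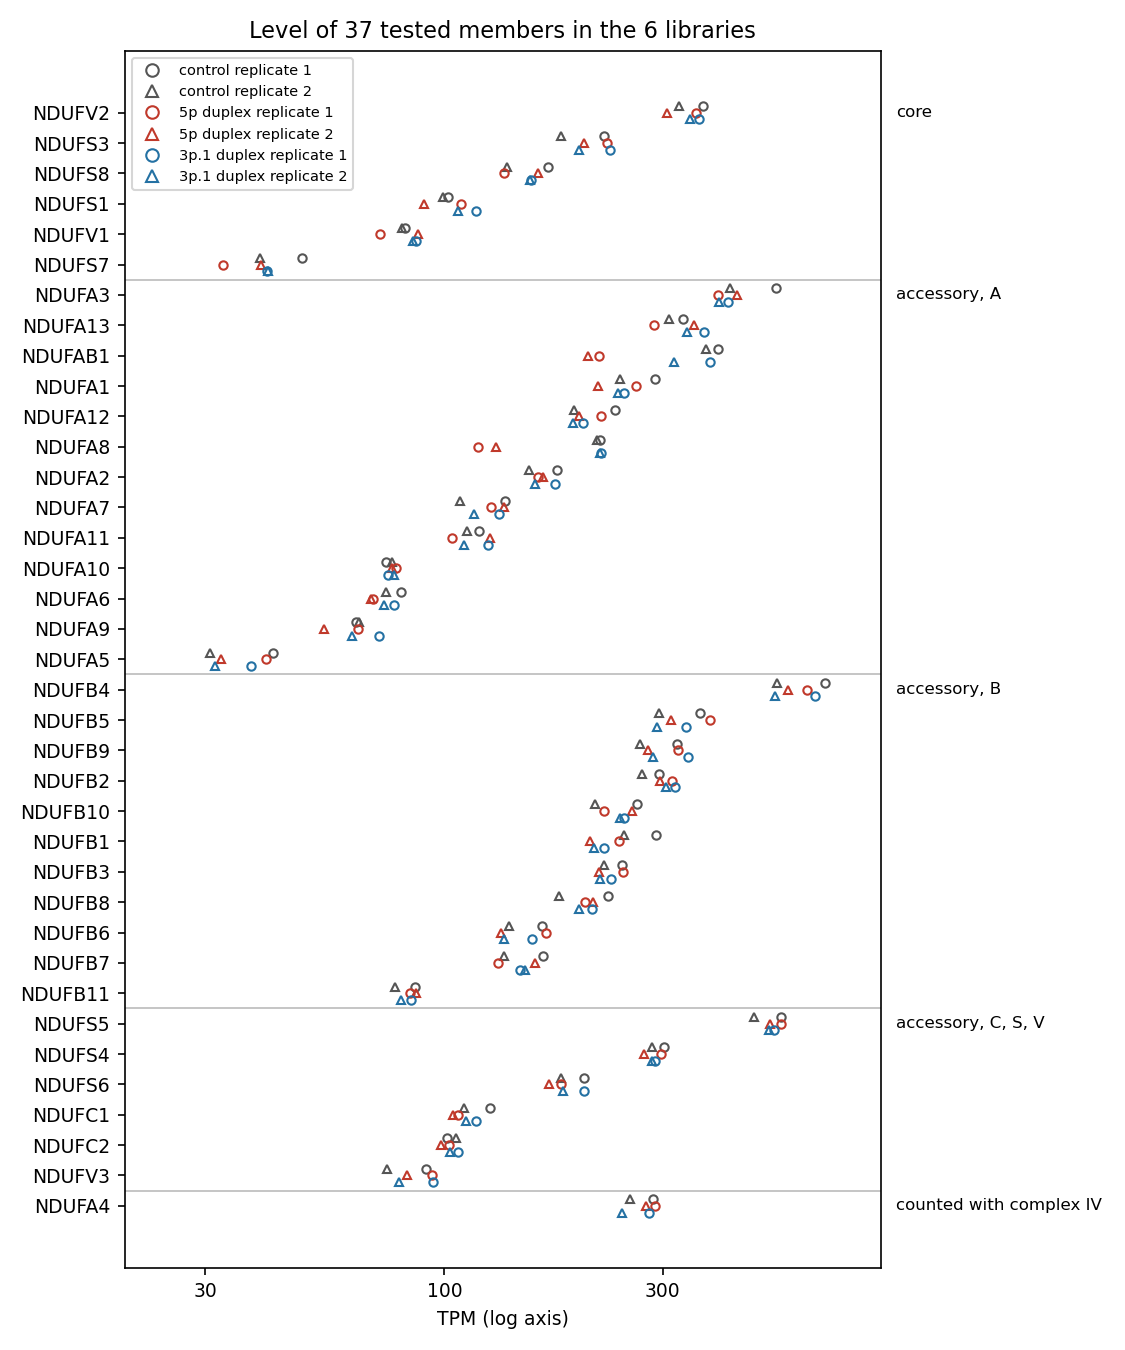
TPM (horizontal log axis) of 37 tested members in the 6 libraries, grouped by role and ordered by mean level; colours mark the group, circles replicate 1 and triangles replicate 2. Points of a gene lie close together, except that the 5p duplex points of NDUFAB1 and NDUFA8 stand apart to the left.

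The 13 accessory subunits with NDUFA symbols had a median of -0.034 for 5p duplex against control, with the 2 calls among them and the rest between -0.18 and 0.10. NDUFA3, a small membrane subunit and the third most abundant member, was at 530.2 and 419.99 TPM in control, 397 and 437 TPM in the 5p libraries and 417 and 398 TPM in the 3p.1 libraries. Its first control library was high and the other 5 lay near each other. NDUFA13, also known as GRIM-19, was at 332 and 309 TPM in control, 287 and 351 TPM in the 5p libraries and 369.9 and 339 TPM in the 3p.1 libraries, so that the 3p.1 libraries lay above control and the 5p libraries on either side of it. NDUFA10, which resembles nucleoside kinases, was the steadiest member, at 74.5 and 76.7, 78.4 and 76.9, and 75.1 and 77.4 TPM. NDUFA5 had the lowest mean of the tested members (35.9 TPM), with 42.3 and 30.8 TPM in control, 40.8 and 32.5 TPM in the 5p libraries and 37.7 and 31.6 TPM in the 3p.1 libraries, so that its replicates differed by more than its groups. NDUFA1, an X-linked membrane subunit, was at 289 and 242, 262 and 217, and 247 and 239 TPM, overlapping in both comparisons (log2 -0.15 and -0.12). NDUFA9, related to NAD(P)H-binding dehydrogenases, was at 64.1 and 64.9, 64.7 and 54.4, and 71.9 and 62.7 TPM, where a single 5p library was low. NDUFA7 was at 136 and 108, 126 and 135, and 132 and 116 TPM, and NDUFA12, a subunit near the N and Q modules, at 236 and 192, 219.7 and 197, and 201 and 191 TPM. NDUFA4 was at 286 and 255, 289 and 276, and 279.8 and 245 TPM.

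Among the 11 accessory subunits with NDUFB symbols, which lie in the membrane arm, 0 were called and the median for 5p duplex against control was 0.016. NDUFB4, the most abundant member (mean 594 TPM), was at 677 and 532 TPM in control, 619 and 564 TPM in the 5p libraries and 644 and 528 TPM in the 3p.1 libraries. NDUFB1, a small membrane subunit, was at 290.4 and 247 TPM in control, 241 and 208 TPM in the 5p libraries and 223 and 213 TPM in the 3p.1 libraries. All 4 duplex libraries were lower than both control libraries, and neither difference passed the test (log2 -0.26 and -0.30, limma adjusted p = 0.585 and 0.696). NDUFB2 was at 294 and 270.3 TPM in control, 315 and 296 TPM in the 5p libraries and 319 and 305 TPM in the 3p.1 libraries, above control in all 4 libraries and also not called (log2 0.11 and 0.14, limma adjusted p = 0.795 and 0.841). NDUFB5 had the highest value between the duplexes (log2 0.14 for 5p duplex against 3p.1 duplex), with 362 and 294, 381 and 313, and 338 and 291 TPM.

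The other 6 accessory subunits (NDUFC1, NDUFC2, NDUFS4, NDUFS5, NDUFS6 and NDUFV3) ran from -0.15 to 0.093 for 5p duplex against control, and 0 were called. NDUFS4, an N module subunit whose loss causes Leigh syndrome, was at 302 and 284 TPM in control, 297 and 273 TPM in the 5p libraries and 289 and 284 TPM in the 3p.1 libraries. NDUFC1 was at 126 and 110.1, 107 and 105, and 117 and 112 TPM, lower in both 5p libraries than in the other 4. NDUFS6, a zinc-binding N module subunit, was at 202 and 179.7, 180.1 and 169, and 202 and 182 TPM, and NDUFV3 at 91.3 and 74.8, 94.1 and 82.8, and 94.3 and 79.5 TPM. NDUFC2 was at 101 and 106, 102 and 98.2, and 107 and 103 TPM.

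In the 5p libraries 5 members lay below both control libraries (NDUFA8, NDUFAB1, NDUFB1, NDUFA6 and NDUFC1) and 2 above (NDUFA10 and NDUFB2). Over all tested genes, groups of 2 did not overlap in this comparison for 22.1% below and 12.7% above, so the share of members is not beyond that of genes at large. Both 5p libraries lay below the other 4 for 4 members (NDUFA6, NDUFA8, NDUFAB1 and NDUFC1), which is near the 11.2% of all tested genes that did so.

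**Figure D3:**
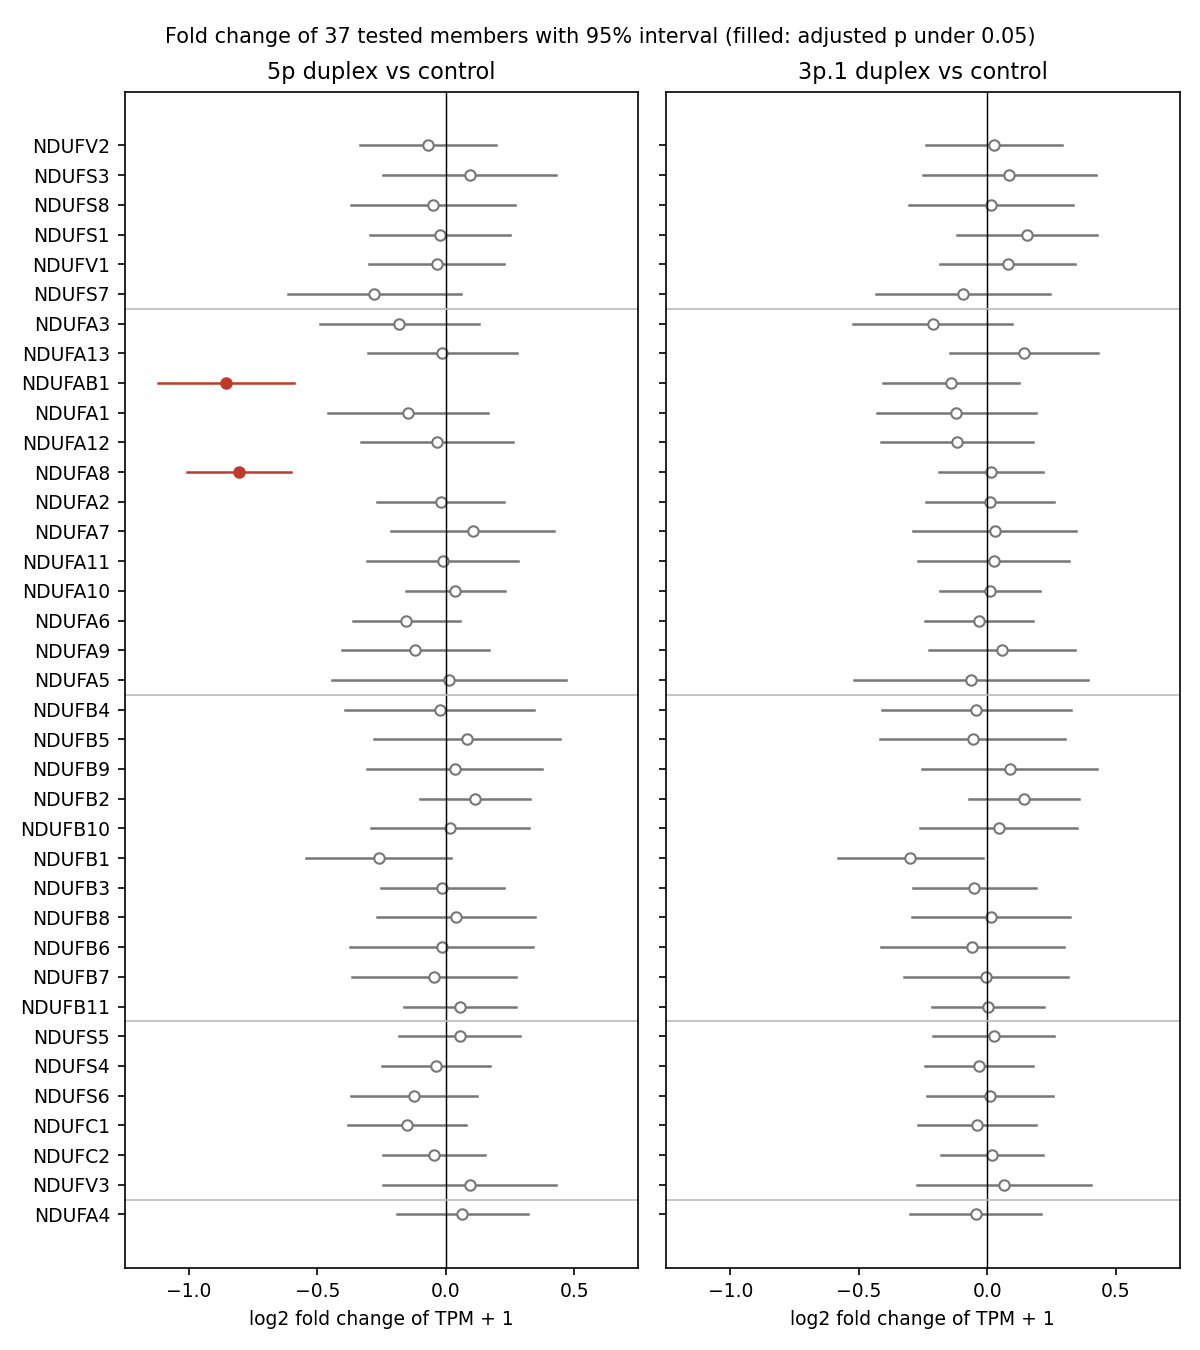
Log2 fold change of TPM + 1 (horizontal axis) of 37 tested members for 5p duplex against control (left) and 3p.1 duplex against control (right), which share the control libraries; points are limma estimates, bars 95% intervals, and filled points have an adjusted p under 0.05. NDUFA8 (-0.80) and NDUFAB1 (-0.85) stand apart on the left, and the other intervals reach across 0 in both panels except that of NDUFB1 on the right.

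For the 3p.1 duplex against control, 0 of 38 members were called by limma, where 2 of 13400 genes were called (0.0149%), 1 lower and 1 higher (0.00746% each). At an unadjusted p under 0.05 there was 1 member, NDUFB1 (lower, 95% interval -0.58 to -0.016), where 5.62% of all tested genes were lower and 1.24% higher at that level. Members ran from -0.30 (NDUFB1) to 0.15 (NDUFS1), with a median of 0.011 beside -0.033 over all genes. NDUFA8 differed by 0.015 (95% interval -0.19 to 0.22) and NDUFAB1 by -0.14 (95% interval -0.41 to 0.12), which leaves out a fall of the size seen with the 5p duplex. The 3p.1 libraries lay below both control libraries for 2 tested members (NDUFB1 and NDUFA3) and above for 5, among them NDUFV1, NDUFA13, NDUFB2 and NDUFS1, where 24.1% and 12.1% of all tested genes did so.

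The direct comparison of the duplexes tested whether the 2 genes differed between them. NDUFA8 was lower with the 5p duplex than with the 3p.1 duplex (log2 -0.82, SE 0.0841, limma adjusted p = 0.0252), the only member called of 38, where 47 of 13400 genes were called lower (0.351%) and 11 higher (0.0821%), 58 in all (0.433%). The call was lost whichever 1 of the 6 libraries was left out (limma adjusted p 0.0664 to 0.274). NDUFAB1 had a log2 difference of -0.71 (SE 0.11, 95% interval -0.98 to -0.45) and did not pass the threshold (limma adjusted p = 0.0905). These were the only 2 members with an unadjusted p under 0.05, where 4.96% of all tested genes were lower and 4.39% higher. Both 5p libraries lay below both 3p.1 libraries for 8 members and above them for 0, where 19.4% and 21% of all tested genes did so (40.4% in all). Outside NDUFA8 and NDUFAB1 the largest of these differences were -0.18 for NDUFS7 and 0.14 for NDUFB5.

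The median of the members was -0.022 for 5p duplex against control, 0.011 for 3p.1 duplex against control and -0.029 for 5p duplex against 3p.1 duplex. All 3 changed sign with the libraries used. Without control replicate 2 the first 2 were -0.11 and -0.088, and without control replicate 1 they were 0.046 and 0.091. The third was above 0 without 5p replicate 2 or 3p.1 replicate 1 (0.0051 for the latter), and it was -0.081 without 3p.1 replicate 2. The summed TPM of the 39 members was 8553 and 7407 in control, 7738 and 7432 in the 5p libraries, and 8200.02 and 7543 in the 3p.1 libraries. It was higher in replicate 1 in every group, and the range within control covered the other 4 libraries.

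Genes that build or accompany complex I were examined from lists recalled from general knowledge. Of 18 assembly factors (the NDUFAF genes and others that put the subunits together), 0 were called in any of the 3 comparisons, and their median for 5p duplex against control was 0.001. The complexes that follow in the chain also had 0 calls. The medians for 5p duplex against control were 0.019 for 4 genes of complex II (succinate dehydrogenase), 0.0099 for 9 of complex III (ubiquinol to cytochrome c), -0.066 for 10 of complex IV (cytochrome c oxidase) and 0.028 for 16 of complex V (ATP synthase). For 3p.1 duplex against control they were 0.040, 0.010, -0.082 and -0.028. Of 12 tested regulators of mitochondrial gene expression 0 were called. At an unadjusted p under 0.05 limma gave 1 gene over all of these lists and comparisons, in complex V and lower with the 5p duplex than with the 3p.1 duplex. Background shares for the adjusted calls are those given above for each comparison.

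**Figure D4:**
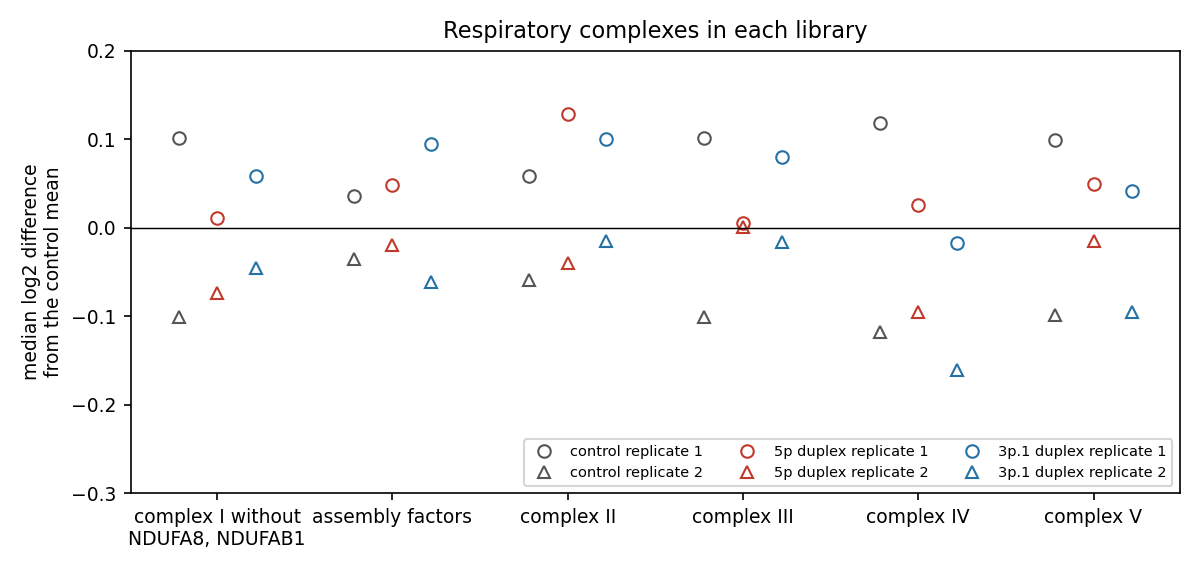
Median log2 difference from the control mean (vertical axis) in each library for complex I without NDUFA8 and NDUFAB1, for assembly factors and for complexes II to V; colours mark the group, circles replicate 1 and triangles replicate 2. In every list and group the circle lies above the triangle, and for complex I the control libraries (0.10 and -0.10) enclose the other 4.

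Members also differed between the 2 libraries of a group. Of the 38, 35 were higher in replicate 1 than in replicate 2 in control, 25 with the 5p duplex and 35 with the 3p.1 duplex, with median log2 differences of 0.19, 0.072 and 0.076, where the medians over all genes were -0.037, -0.0055 and -0.016. In control the same direction held for 81 of 83 cytosolic ribosomal protein genes (median 0.21) and for all 10 tested genes of complex IV (median 0.24). In control it went in part with transcript length (Pearson's r -0.443 over the 38 members and -0.26 over 12040 genes). All 30 members with a principal transcript of up to 2029 bases were higher in replicate 1 of control. Their median was 0.23, against 0.071 over all genes of that length. Of these 30, 18 were higher in replicate 1 with the 5p duplex and 28 with the 3p.1 duplex. With the 5p duplex the replicate difference went with base composition. All 20 members with a transcript GC content of up to 48.8% were higher in replicate 1, and all 8 members above 57.1% were lower there (median -0.26). Pearson's r between GC and the replicate difference was -0.829 over the 38 members with the 5p duplex, 0.122 in control and -0.397 with the 3p.1 duplex (-0.425, 0.20 and 0.008 over 12040 genes), as a description across genes that share libraries. GC content was examined after the data were seen. NDUFA8 (51.4% GC) and NDUFAB1 (47.6% GC) differed between the 5p replicates by -0.13 and 0.077. Such a difference cannot show a GC trend that both 5p libraries share. With the trend on GC removed from each library, NDUFA8 stood at -0.77 and kept its call (limma adjusted p = 0.025). NDUFAB1 stood at -0.83 and lost its call (limma adjusted p = 0.0682). Whether base composition has a part in the 2 falls was not tested.

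**Figure D5:**
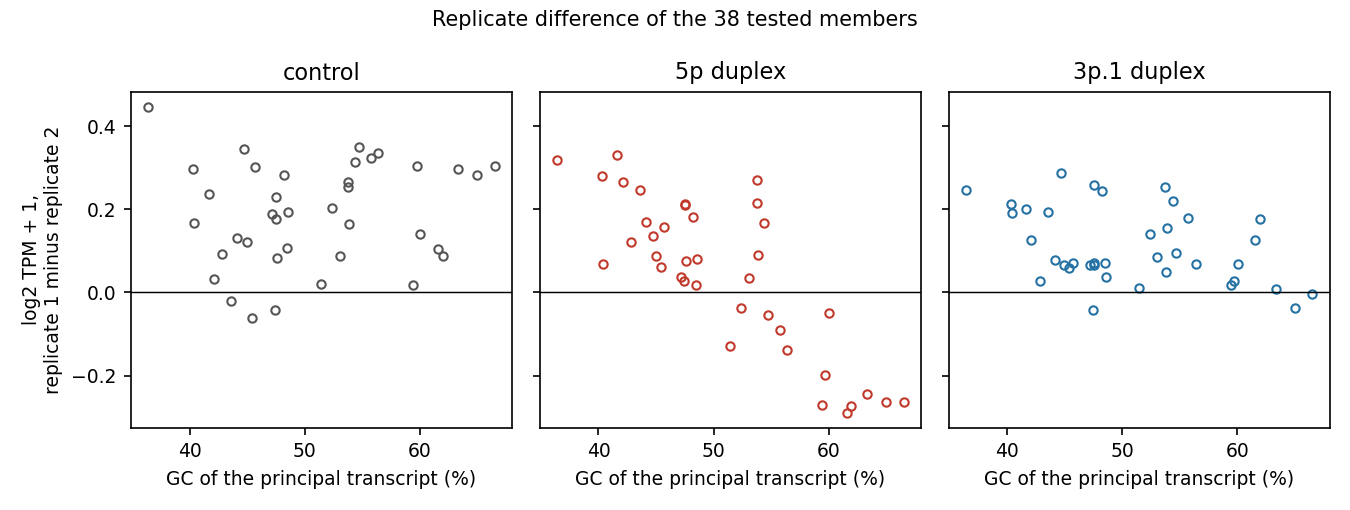
Difference in log2(TPM + 1) between replicate 1 and replicate 2 (vertical axis) against the GC content of the principal transcript in percent (horizontal axis) for the 38 tested members, 1 panel per group. With the 5p duplex the points run from above 0 at low GC to below 0 at high GC (Pearson's r -0.829 over genes).

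The members were short transcripts, with a median principal transcript of 960.5 bases and a median 3′UTR of 189.5 bases, against 3158.5 and 1088 bases over the 12040 tested genes matched to GENCODE 29. Median GC content was 48.5% for members and 48.8% for those genes. They lay on 18 chromosomes, and 18 members have an annotated pseudogene named after them, NDUFA8 and NDUFAB1 with 1 each, so reads could be shared with these copies depending on the authors' counting.

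Matches to the miR-324-5p seed were counted in the longest annotated 3′UTR of each gene. A match of 7 or 8 bases was found in 3 of 38 members (7.89%), against 14.5% of 12010 genes with a 3′UTR, and an 8-base match in 0 of 38, against 2.81%. The members' 3′UTRs are shorter than those of other genes, as given above. The 3 are shown since they are the members that a seed search would list, in 28 bases with the match in capitals.
NDUFC2 (chr11:78068965-78068971, minus strand): tggaattcgaGGATGCAattaattgtgg
NDUFS3 (chr11:47581753-47581759, plus strand): ggatattagaGGGATGCtttaagaaagc
NDUFS7 (chr19:1394954-1394960, plus strand): gggtcctcgtGGGATGCccgggctctgg
None of the 3 was called with the 5p duplex (log2 -0.046 for NDUFC2, 0.094 for NDUFS3 and -0.28 for NDUFS7). In the principal transcript only NDUFC2 kept a match (2.63% of members, against 12.7% of 11932 genes), so those of NDUFS3 and NDUFS7 lie in 3′UTRs of other annotated transcripts. NDUFV1 (2 matches) and NDUFA9 held 7-base matches in coding sequence (5.26% of members, against 18.8% of 12040 genes). NDUFB3 held one in its 5′UTR (2.63%, against 2.33%). None of these was called with the 5p duplex either, where 0.463% of all tested genes were called, so the missing calls say little about the matches.

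For the other arm, 7- or 8-base matches in the longest 3′UTR were found in 12 of 38 members for the RefSeq form of miR-324-3p (31.6%, against 32.1% of genes), in 6 for the form that starts at base 2 (15.8%, against 31%) and in 9 for the form that starts at base 4 (23.7%, against 27.9%). NDUFA8 was in none of these sets. NDUFAB1 was not called with the 3p.1 duplex (log2 -0.14, 95% interval -0.41 to 0.12), where 2 of 13400 genes were called. An 8-base match to the form from base 2 lies in the 3′UTR of 2 of its 4 coding transcripts, though not in its longest. The start of the 3p.1 strand is not given, and whether this match acts was not tested.
NDUFAB1, 3′UTR (chr16:23581117-23581124, minus strand): acgaatgtctGGCAGTGAggacacattt

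In RefSeq promoter windows of 250 bases before to 50 bases after the start (GRCh38.p14), exact words of 3 factors tied to respiratory chain genes were searched on both strands for the 32 members in the table. GCGCATGCG, the NRF1 word, was in 4 of 32 (NDUFA8, NDUFB4, NDUFS6 and NDUFS7, 12.5%) and in 2.1% of 27305 promoters. These 27305 are not limited to genes tested here, unlike the genes set beside the seed matches, so they include genes that these cells may not express. CCGGAAG, an ETS word, was in 5 (15.6%, against 10.7%), and AAGATGGCG, a YY1 word, in 5 (NDUFA6, NDUFA7, NDUFA9, NDUFS4 and NDUFS7, 15.6%, against 1.85%). All 5 YY1 words lay 10 to 25 bases after the start, inside the transcript, where their ATG can be the start codon of the gene. A word at a start codon was not told apart from a promoter word here. The NRF1 words of NDUFA8 overlap the 6-base seed match printed above by 2 bases. NDUFB4 and NDUFS6, which hold the NRF1 word too, were not called. These matches describe letters in the window and not bound sites.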

How the data were processed

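RNA from 6 libraries of A172 cells was sequenced as 100 bp paired reads (BGISEQ-500, stranded, oligo-dT selected), per the labels' protocols. The deposited values are TPM per gene symbol, made by the authors with RSEM on GRCh38 per the submitters' processing notes. Not given in the sources used here are versions, gene annotation and the counting's strand setting, so reads of overlapping, antisense or pseudogene copies may be shared. TPM are relative within a library, keep no read number and move for all genes when a few abundant ones move.

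A symbol missing from a library was set to 0. The 13400 genes averaging 1 TPM or more were fitted as log2(TPM + 1) with limma 3.58.1 in R 4.3.3, using 3 group means over 6 libraries, a variance trend and Benjamini-Hochberg adjustment over all 13400. A call is an adjusted p under 0.05, two-sided. Fold changes are on the log2(TPM + 1) scale, which understates those of low genes. The code of the fit was tested on simulated data with independent noise in each library. That setting differs from these libraries, so it does not test the calls made here. All 3 comparisons share libraries, so their results are not independent.

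Members and lists were chosen with earlier results of these data known. Members are named if core, called, NDUFA4, NDUFA4L2 or NDUFAB1, among the 5 highest or lowest fold changes of a comparison, among the 3 with the highest mean or the 3 with the largest SD, or with a 7- or 8-base miR-324-5p match. NDUFA6, NDUFA10, NDUFB7, NDUFB10, NDUFC1, NDUFS4 and NDUFS6 were named after their values were seen. The values of 1 tested member are not reported here, although it stays in all fits, counts and medians. Transcripts came from GENCODE 29 (GRCh38) for 12040 tested genes (89.9%) and all 38 tested members, and miRNA and promoter sequences from RefSeq (GRCh38.p14). Alternatives were another pseudocount, filter or normalization, no trend, 2-group fits, a replicate block and each library left out. Removal of the GC trend (lowess, span 0.3) was added after the data were seen.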

Additional observations from a re-analysis of the deposited data

Results flagged for a closer look

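In the main fit, which had no replicate block, NDUFA8 was the one member whose response differed between the duplexes by a test of that difference. Its log2 difference was -0.82 for 5p duplex against 3p.1 duplex (limma adjusted p = 0.0252). The call was lost without the filter on low genes, without the variance trend and in 2-group fits (limma adjusted p 0.066 to 0.071). Both 5p libraries lay lower than both 3p.1 libraries (118 and 129.6 against 219.97 and 218 TPM). With a replicate block NDUFAB1 passed the threshold as well (log2 difference -0.71, limma adjusted p = 0.0121, against 0.0905 without it). No explanation was tested.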

How the results depend on the processing

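With 2 libraries a group, counts of calls depended on the fit, and the cause was not tested. Called members numbered 2 for 5p duplex against control, and 0 without a filter, 1 with quantile normalization, 0 without the variance trend, 0 in 2-group fits, 1 with the GC trend removed and 0 to 0 with a library left out. For 5p duplex against 3p.1 duplex the 1 became 0 without a filter, 0 without the trend, 0 in 2-group fits and 0 to 0 with a library left out. NDUFA8 kept its direction in all of these, and so did NDUFAB1. Over all genes, the 62 calls of 5p duplex against control became 9 without a filter, 33 without the trend, 11 in 2-group fits and 7 to 128 with a library left out. The 2 of 3p.1 duplex against control became 0 without a filter, 18 in 2-group fits and 5 to 94 with a library left out. The 58 between the duplexes became 5 without a filter, 5 without the trend, 19 in 2-group fits and 7 to 26 with a library left out.

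Replicate numbers pair nothing in the labels. Deviations of same-numbered libraries correlated at 0.265, 0.375 and 0.383 over 13400 genes. With a replicate block the calls were 367, 30 and 278 for the 3 comparisons, and called members 2 for 5p duplex against control and 2 between the duplexes, where NDUFAB1 (limma adjusted p = 0.0121) joined NDUFA8.

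The median log2 fold change of the members ran from -0.11 to 0.046 for 5p duplex against control and from -0.088 to 0.091 for 3p.1 duplex against control with a library left out, and from -0.081 to 0.0051 for 5p duplex against 3p.1 duplex. Single members were recomputed for 32 of the 38 tested, those named in the text, and sign changes of the other members were not counted. For these 96 values, 1248 recomputed values over the 13 alternatives other than removal of the GC trend gave 1119 with the same direction and call, 100 with a change of sign, 28 that lost and 1 that gained a call. No difference whose sign changed exceeded 0.14. With quantile normalization, 3p.1 duplex against control turned to -0.0011 for NDUFC2 and -0.0088 for NDUFS6. With the GC trend removed, 5p duplex against control turned to 0.088 for NDUFA13, 0.088 for NDUFB7, 0.068 for NDUFS8 and 0.047 for NDUFV1, 3p.1 duplex against control to 0.0003 for NDUFA6 and 0.070 for NDUFB7, and 5p duplex against 3p.1 duplex to 0.0054 for NDUFB10 and 0.019 for NDUFB7. The other sign changes came with a library left out. For 5p duplex against control the ranges were NDUFA12 -0.18 to 0.12, NDUFA13 -0.16 to 0.13, NDUFA4 -0.019 to 0.15, NDUFA5 -0.21 to 0.24, NDUFA7 -0.057 to 0.27, NDUFA9 -0.24 to 0.0051, NDUFB10 -0.14 to 0.17, NDUFB3 -0.099 to 0.071, NDUFB4 -0.20 to 0.15, NDUFB5 -0.066 to 0.23, NDUFB7 -0.19 to 0.095, NDUFB9 -0.098 to 0.17, NDUFS1 -0.15 to 0.11, NDUFS3 -0.064 to 0.25, NDUFS4 -0.10 to 0.021, NDUFS5 -0.043 to 0.15, NDUFS8 -0.20 to 0.098, NDUFV1 -0.17 to 0.10, NDUFV2 -0.18 to 0.035, NDUFV3 -0.049 to 0.23. For 3p.1 duplex against control the ranges were NDUFA1 -0.25 to 0.0074, NDUFA10 -0.0092 to 0.034, NDUFA12 -0.27 to 0.034, NDUFA4 -0.14 to 0.051, NDUFA5 -0.29 to 0.16, NDUFA6 -0.086 to 0.022, NDUFA7 -0.13 to 0.19, NDUFA9 -0.039 to 0.15, NDUFB10 -0.11 to 0.20, NDUFB3 -0.11 to 0.017, NDUFB4 -0.22 to 0.13, NDUFB5 -0.20 to 0.093, NDUFB7 -0.14 to 0.14, NDUFB9 -0.044 to 0.22, NDUFC1 -0.13 to 0.053, NDUFC2 -0.013 to 0.049, NDUFS3 -0.071 to 0.24, NDUFS4 -0.078 to 0.014, NDUFS5 -0.072 to 0.12, NDUFS6 -0.072 to 0.093, NDUFS7 -0.25 to 0.058, NDUFS8 -0.13 to 0.16, NDUFV2 -0.062 to 0.11, NDUFV3 -0.076 to 0.21. For 5p duplex against 3p.1 duplex the ranges were NDUFA1 -0.16 to 0.11, NDUFA3 -0.037 to 0.10, NDUFA5 -0.084 to 0.23, NDUFA7 -0.014 to 0.16, NDUFB1 -0.068 to 0.14, NDUFB10 -0.13 to 0.070, NDUFB2 -0.073 to 0.014, NDUFB3 -0.050 to 0.12, NDUFB4 -0.12 to 0.16, NDUFB5 -0.0019 to 0.28, NDUFB7 -0.17 to 0.090, NDUFB9 -0.18 to 0.073, NDUFS3 -0.10 to 0.12, NDUFS4 -0.068 to 0.054, NDUFS5 -0.011 to 0.070, NDUFS8 -0.19 to 0.058, NDUFV1 -0.25 to 0.021, NDUFV2 -0.20 to 0.0088, NDUFV3 -0.095 to 0.15. Depth could not be read from TPM, so the smallest detectable change is not known.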
